A study of Mus musculus with 36 samples.

Results

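Replication licensing genes encode the proteins that load the MCM helicase onto DNA before S phase. The 10 genes followed here were Mcm2, Mcm3, Mcm4, Mcm5, Mcm6, Mcm7, Mcm10, Cdc6, Cdt1 and Gmnn. They were chosen by symbol, as the rows of these names in the female and the male count table. No threshold on a measured value was used, but earlier results of these data were known. All 10 were found in both tables, which share 17716 gene names and hold 18691 names in all. All 10 passed the filter on low counts in every comparison. Wild-type C57BL/6 mice, 7 weeks old at purchase and acclimated for 1 week, were dosed on days 0, 7 and 13, and the left lung was taken on day 14 for RNA-seq. The 6 treatments were saline (control), oil from the Macondo well (MC252), the oil dispersants Corexit 9500 and Corexit 9527, and each dispersant with oil (9500+oil and 9527+oil). Each treatment was given to 3 female and 3 male mice, 36 in all, and no group carried an engineered allele. Doses were 50 µL of a fraction diluted to 0.1, which the labels call a water-accommodated fraction given into the trachea and the methods a saline-accommodated fraction given by aspiration from the throat. Female and male mice were treated separately, so that sex and the separate treatment cannot be told apart.

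In late mitosis and G1, the origin recognition complex, CDC6 and CDT1 load a ring of the 6 subunits MCM2 to MCM7 onto DNA at each origin. Geminin, the product of Gmnn, binds CDT1 from S phase to mitosis and blocks a second loading, while MCM10 acts later, when the loaded helicase is activated. The genes are transcribed around the G1/S boundary under E2F factors, and quiescent cells, which make up most of an adult lung, carry little of their products.

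The E2F site is a known element of several of these promoters, and for this reason 2 promoters that hold it are shown beside 1 that does not. RefSeq promoter windows of 300 bases (build GRCm38.p6, 250 before to 50 after the start) were at hand for 8 of the 10 genes, and not for Mcm4 and Gmnn. The 250 bases before the start are printed 5′ to 3′ on the strand of the gene, with E2F forms in capitals. Mcm5 lies at chr8:75109259-75109508 on the plus strand, Mcm6 at chr1:128359706-128359955 on the minus strand and Mcm10 at chr2:5012792-5013041 on the minus strand.
Mcm5: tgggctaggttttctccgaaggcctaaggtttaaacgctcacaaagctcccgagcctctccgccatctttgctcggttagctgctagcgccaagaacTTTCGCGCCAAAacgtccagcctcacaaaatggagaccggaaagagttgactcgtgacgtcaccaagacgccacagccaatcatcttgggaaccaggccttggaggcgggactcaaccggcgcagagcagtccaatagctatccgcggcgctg
Mcm6: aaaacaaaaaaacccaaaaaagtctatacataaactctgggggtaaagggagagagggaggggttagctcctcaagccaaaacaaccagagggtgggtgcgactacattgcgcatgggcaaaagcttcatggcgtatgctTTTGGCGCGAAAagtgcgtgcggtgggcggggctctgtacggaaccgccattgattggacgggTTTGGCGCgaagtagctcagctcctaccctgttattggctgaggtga
Mcm10: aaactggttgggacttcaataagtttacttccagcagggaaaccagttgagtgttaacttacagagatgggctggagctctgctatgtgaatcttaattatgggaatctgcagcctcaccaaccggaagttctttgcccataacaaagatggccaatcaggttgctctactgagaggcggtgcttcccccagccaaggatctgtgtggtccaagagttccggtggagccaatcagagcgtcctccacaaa
The forms searched on both strands were TTTCCCGC, TTTCGCGC, TTTGCCGC and TTTGGCGC. In Mcm5, a TTTCGCGC that begins 153 bases before the start overlaps a TTTGGCGC of the opposite strand that begins at 149, and the first capitals of Mcm6 hold such a pair at 110 and 106 bases before the start. At least 1 form was found in the windows of 6 of the 8 genes (Mcm3, Mcm5, Mcm6, Mcm7, Cdc6 and Cdt1, in Mcm7 in 1 of its windows), and not in those of Mcm2 and Mcm10. Of all 32851 windows of this length, 2.26% held one. CCAAT, another common promoter element, was found in 6 of the 8 genes and in 37.4% of all windows. These are matches of letters, and no binding was measured.

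Between 17501180 and 30011557 counts were assigned to genes in each mouse. Markers of alveolar type 2 cells summed to 7946 to 22554 CPM in each mouse, CPM being counts scaled to the depth of the library. In 4 female libraries mitochondrial genes took over 20% of the counts, namely 45.1% in saline mouse 3, 38.4% in Corexit 9527 mouse 11, 22.6% in oil mouse 6 and 20.7% in 9500+oil mouse 14. This share was 6.16% to 11.3% in the remaining 14 libraries of female mice and 5.27% to 7.68% in all 18 of male mice. Several licensing genes stood apart in the same 4 libraries. Cdt1, whose transcript has a GC content of 58.8%, had a count of 0 in saline mouse 3 and in Corexit 9527 mouse 11, where a count of 0 allows up to 0.349 and 0.317 CPM. In the other 2 of these libraries Cdt1 stood at 1.29 and 1.32 CPM, against a mean of 5.58 and 5.89 CPM in the other mice of their groups. Mcm5 had a count of 0 in Corexit 9527 mouse 11 and Mcm2 stood at 1.75 CPM in saline mouse 3, against 16.5 and 18.5 CPM in the other female saline mice. Mcm7, with 53.4% GC, differed by -0.01 to 0.22 log2 units from the mean of the other mice of its group in the 4 libraries, and Gmnn, with 49.8%, was above that mean in each by 0.53 to 1.06. Mcm2, with 55.5%, differed from that mean by -3.25 to -0.46 log2 units, and Mcm5, with 51.9%, was also below it in all 4 libraries. Whether the deviations followed GC content was not tested. Mcm6, with 47.3%, differed by -1.79 in saline mouse 3, and Mcm10, with 48.7%, and Cdc6, with 49.4%, by -2.45 and -2.41 in Corexit 9527 mouse 11. Fits that held any of them were repeated without them, and the counts of licensing genes from both are given below.

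**Figure D1:**
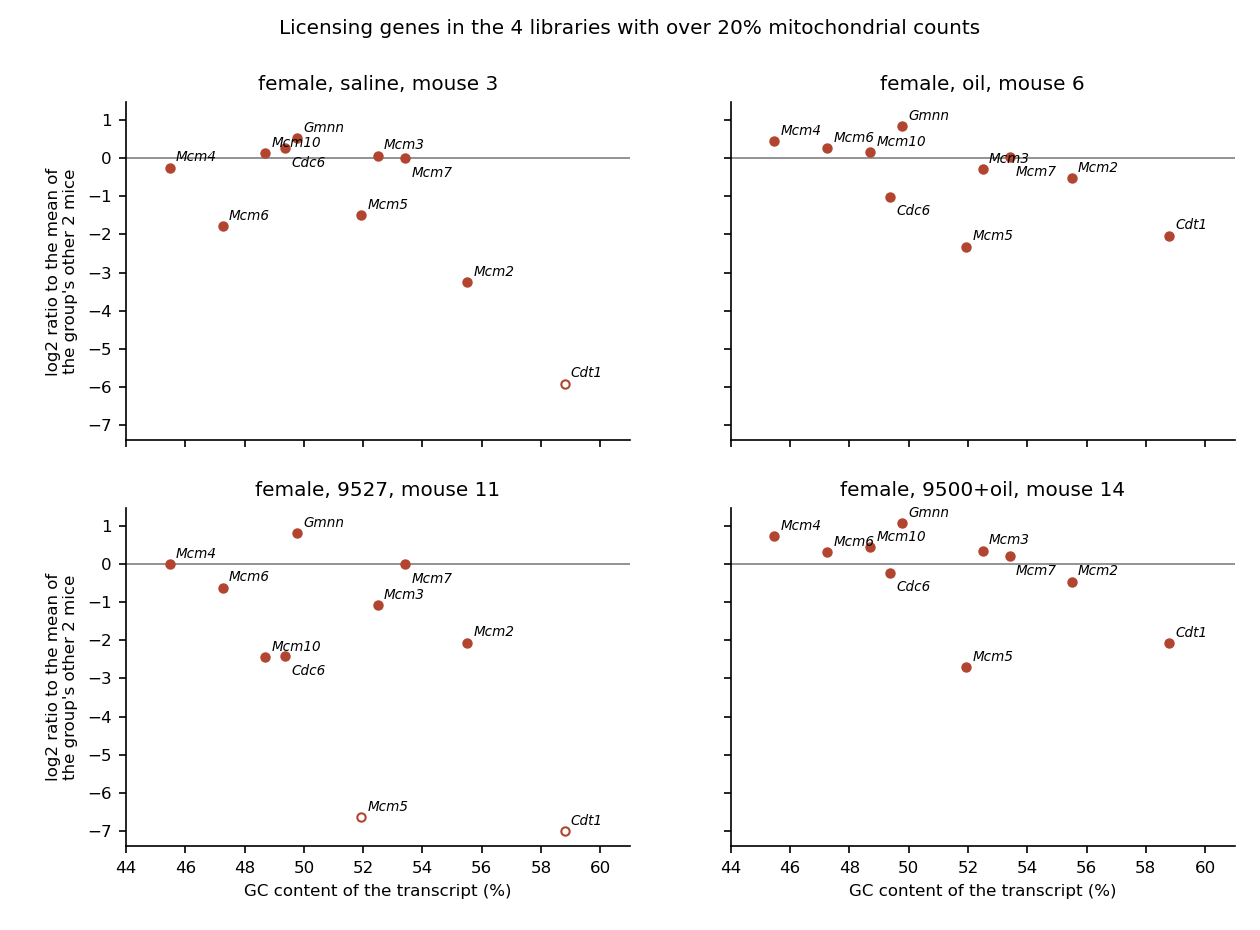
Licensing genes in the 4 female libraries with over 20% mitochondrial counts. Each point is 1 gene, with the GC content of its transcript (%) on the x axis and, on the y axis, the log2 ratio of its CPM to the mean of the other 2 mice of its group, with 0.1 CPM added to both. Open points have a count of 0, so that their height depends on the added value. Cdt1, Mcm2 and Mcm5 lie below 0 in all 4 panels and Gmnn above it.

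In male saline mice the helicase subunits were the most abundant licensing transcripts apart from Mcm5. Per kilobase of transcript, these mice carried 9.56 ± 1.45 CPM per kb of Mcm7 (SD, n = 3), 8.96 ± 0.378 of Mcm3, 8.15 ± 0.687 of Mcm4, 6.81 ± 0.340 of Mcm6 and 5.93 ± 1.29 of Mcm2. Cdt1 (3.60 ± 1.21 CPM per kb) and Gmnn (3.23 ± 0.576) followed, and Mcm5 (0.746 ± 0.319), Cdc6 (0.614 ± 0.0990) and Mcm10 (0.543 ± 0.117) were lowest. In this order the mice of neighboring genes did not overlap between Mcm4 and Mcm6 and between Gmnn and Mcm5, and all other neighbors overlapped. In female saline mice every pair of neighbors overlapped, with Mcm3 (9.04 ± 0.252 CPM per kb) first and Mcm10 (0.538 ± 0.164) last. Gmnn (4.58 CPM per kb) stood above Mcm2 (3.64) over the 3 female mice, and below it without saline mouse 3 (3.97 against 5.20, n = 2).

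The highest group means of the licensing genes were mostly those of Corexit 9527. In male mice the mean of every one of the 10 genes was highest with Corexit 9527, and the mean of 8 was lowest with saline. In female mice the highest mean was that of Corexit 9527 for 6 genes and of Corexit 9500 for 4, and without the 4 libraries it was that of Corexit 9527 for all 10. Across the 6 groups of a sex, edgeR's quasi-likelihood test called 0 of the 10 genes in male mice, where the lowest adjusted p was 0.0824 for Mcm6 and all 10 had an unadjusted p under 0.05. Without male Corexit 9527 mouse 11, 4 of the 10 were under that p, against 7.23% of all genes. In female mice the test also called 0, with 3 genes (Mcm4, Mcm7 and Cdc6) at an unadjusted p under 0.05. Of all genes, 0.135% were called in male and 0.0129% in female mice, and 10.4% and 1.35% had an unadjusted p under 0.05. Without the 4 libraries, 8 genes in female mice, all but Mcm5 and Gmnn, had an unadjusted p under 0.05, against 4.23% of all genes, and 0 of the 10 and 0% of all genes were called. Without female Corexit 9500 mouse 8 alone the number was 6, against 1.58%.

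**Figure D2:**
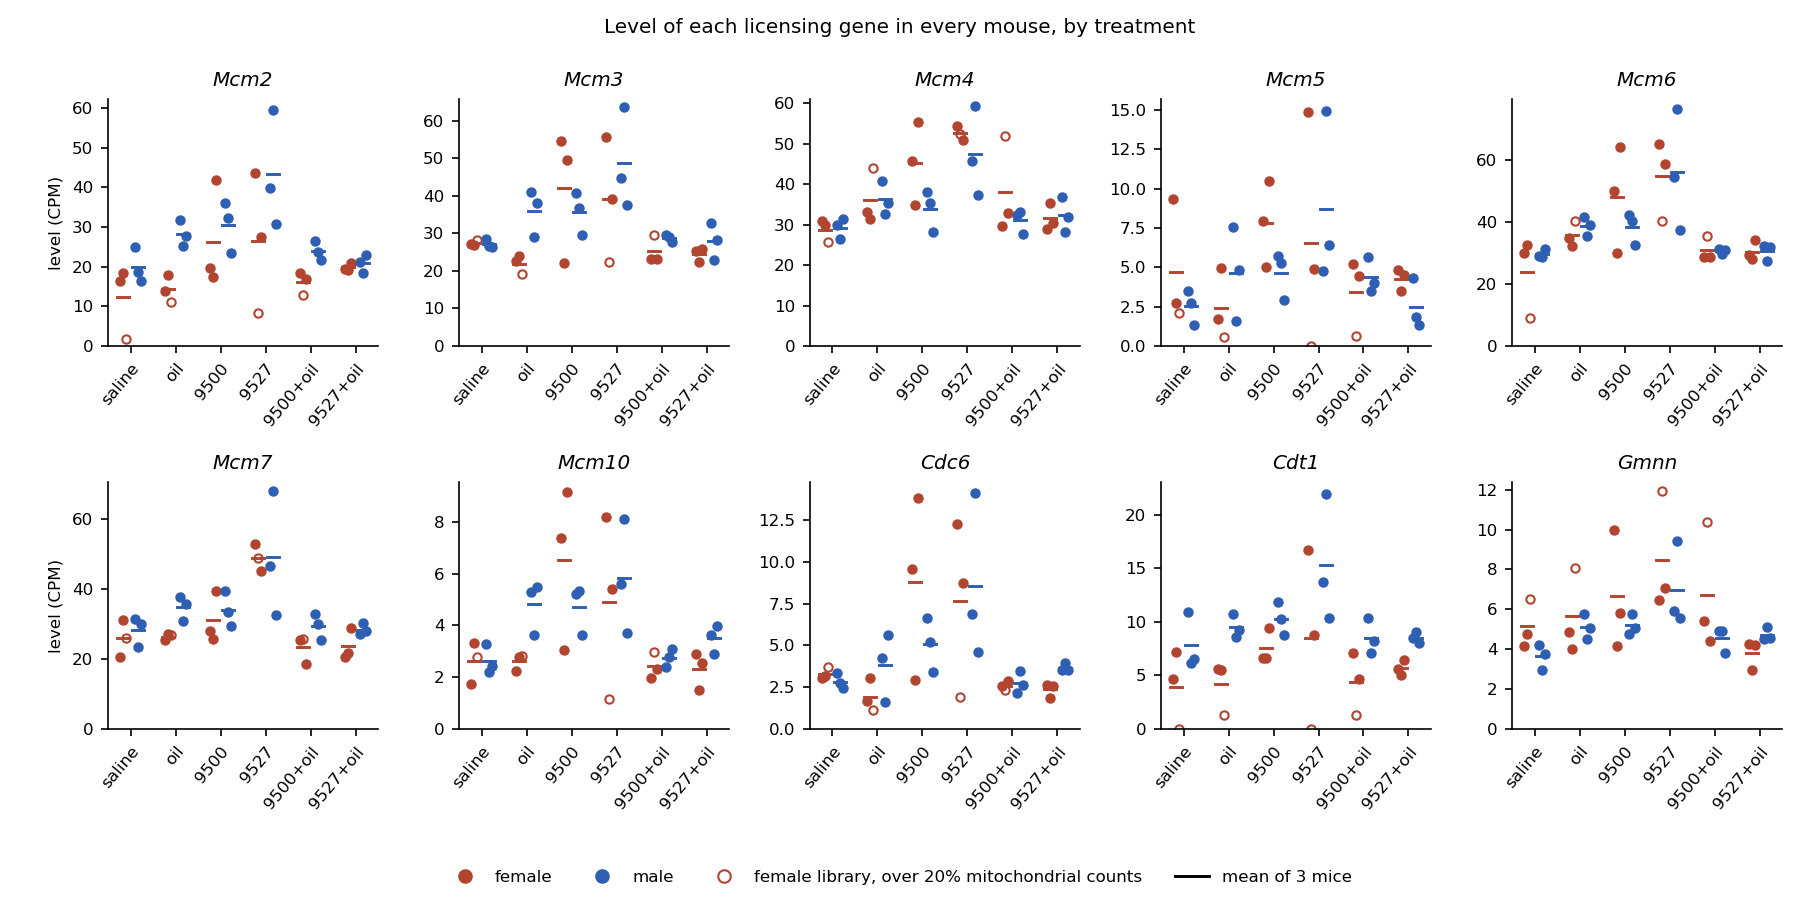
Level of each of the 10 licensing genes in every mouse. The y axes give CPM from 0 and the x axes the 6 treatments, points are mice, bars are means of 3 mice, and open points are the 4 female libraries with over 20% mitochondrial counts. In male mice (blue) the mean with Corexit 9527 is the highest of the 6 in every panel.

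Over both sexes, all 10 genes were higher with Corexit 9527 than with saline, by a median of 1.02 log2 units against 0.01 over all genes tested, and edgeR's test called 0 of them at an adjusted p of 0.05. Of all 15328 genes, 52% were higher. The helicase subunits Mcm4, Mcm7 and Mcm6 differed most clearly. In whole lung, more proliferating cells and more of a transcript per cell cannot be told apart.

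Mcm4 (ENSMUSG00000022673, chromosome 16 of GRCm38 from 15623897 to 15637400) stood at 54.4, 52.3 and 51.0 CPM in the female and 45.7, 59.3 and 37.3 CPM in the male Corexit 9527 mice. The saline mice had 30.8, 29.8 and 25.6 CPM in female and 29.9, 26.5 and 31.4 CPM in males. Every treated mouse was above every saline mouse of its sex, and the fold change was 1.72 (log2 0.78 with a standard error, SE, of 0.14, edgeR's adjusted p = 0.213). Mcm7 (ENSMUSG00000029730, chromosome 5 from 138164583 to 138172422) had 52.8, 48.8 and 45.3 CPM in the female and 46.7, 68.2 and 32.7 CPM in the male treated mice. Its saline mice had 20.7, 31.1 and 26.0 CPM in female and 31.5, 23.4 and 30.1 CPM in male mice. The groups did not overlap in either sex, although the lowest male treated mouse was only just above the highest saline mouse, and the fold change was 1.81 (log2 0.85, SE 0.19, edgeR's adjusted p = 0.389). Mcm6 (ENSMUSG00000026355, chromosome 1 from 128331590 to 128359664), the gene with 3 E2F forms in its promoter, had 65.0, 40.3 and 58.6 CPM in the female and 54.5, 76.1 and 37.2 CPM in the male treated mice. Its saline mice had 29.9, 32.6 and 8.96 CPM in female and 28.9, 28.7 and 31.4 CPM in male mice. Here too the groups did not overlap, and the fold change was 2.08 (log2 1.05, SE 0.29, edgeR's adjusted p = 0.650). These 3 of the 10 genes had groups that did not overlap in either sex, against 0.946% of all genes with Corexit 9527 the higher.

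Mcm2 and Mcm3, the other helicase subunits at this level, overlapped with saline in female mice. Mcm2 (ENSMUSG00000002870, chromosome 6 from 88883474 to 88898780) had 43.7, 8.45 and 27.5 CPM in the female treated mice against 16.5, 18.5 and 1.75 CPM with saline, and 39.9, 59.4 and 30.8 CPM in the male treated mice against 24.9, 18.7 and 16.5 CPM. Its lowest treated and its lowest saline mouse were the 2 libraries with the highest mitochondrial shares. Its log2 fold change was 1.11 (SE 0.50). Mcm3 (ENSMUSG00000041859, chromosome 1 from 20802968 to 20820312) had 55.7, 22.3 and 39.1 CPM in the female and 44.7, 63.5 and 37.7 CPM in the male treated mice. With saline it stood within a narrow range of 26.3 to 28.5 CPM in all 6 mice of both sexes, and the log2 fold change was 0.67 (SE 0.22). Mcm5 (ENSMUSG00000005410, chromosome 8 from 75109569 to 75128439) was the subunit with the lowest group means, with 14.9, 0 and 4.88 CPM in the female treated mice against 9.33, 2.76 and 2.10 CPM with saline. In male mice Mcm5 did not overlap, with 4.76, 15.0 and 6.41 CPM against 3.48, 2.73 and 1.35 CPM. Its log2 fold change over both sexes was 1.13, with a SE of 0.85.

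The loading factor Cdc6 (ENSMUSG00000017499, chromosome 11 from 98907801 to 98923940) had the largest log2 fold change of the 10 genes, 1.39 (SE 0.42, edgeR's adjusted p = 0.756). It stood at 12.3, 1.90 and 8.75 CPM in the female treated mice against 3.04, 3.16 and 3.73 CPM with saline. The male treated mice had 6.86, 14.1 and 4.6 CPM and the male saline mice 3.33, 2.73 and 2.44 CPM. All treated mice but female mouse 11 thus lay above all saline mice of their sex. Cdt1 (ENSMUSG00000006585, chromosome 8 from 122568015 to 122573554), the second loading factor, had 16.7, 0 and 8.72 CPM in the female treated mice against 4.63, 7.22 and 0 CPM with saline. In male mice it had 13.7, 22.0 and 10.4 CPM against 10.9, 6.2 and 6.5 CPM, an overlap by 1 mouse. Its log2 fold change was 1.02 with a SE of 0.93, the widest of the 10.

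Gmnn (ENSMUSG00000006715, chromosome 13 from 24751845 to 24761923), the inhibitor of CDT1, had 6.44, 11.9 and 7.09 CPM in the female and 5.91, 9.42 and 5.59 CPM in the male treated mice. The saline mice had 4.18, 4.77 and 6.52 CPM in female and 4.23, 2.94 and 3.75 CPM in males. Gmnn thus differed by 0.82 log2 units (SE 0.26). Its highest mouse was female Corexit 9527 mouse 11, in which Cdt1 was at 0 and Cdc6 at 1.90 CPM. Mcm10 (ENSMUSG00000026669, chromosome 2 from 4989714 to 5012791), which has no E2F form in its promoter window, had 8.17, 1.16 and 5.39 CPM in the female treated mice against 1.75, 3.31 and 2.79 CPM with saline. Its male mice had 5.61, 8.11 and 3.72 CPM against 3.28, 2.21 and 2.44 CPM, and the log2 fold change over both sexes was 1.02 (SE 0.42).

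At an unadjusted p under 0.05, 8 of the 10 genes were higher with Corexit 9527 in edgeR's test, all but Mcm5 and Cdt1, against 2.26% of all genes. At an adjusted p of 0.05 the shares were 0 of the 10 and 0.0326% of all genes. Without female saline mouse 3 and female Corexit 9527 mouse 11, the libraries of high mitochondrial share in this comparison, 7 of the 10 rose with an adjusted p from 0.0104 to 0.0440, against 2.13% of all genes called in that fit. These were Mcm2, Mcm3, Mcm4, Mcm6, Mcm7, Mcm10 and Cdc6, and their largest log2 fold change was 1.66 for Cdc6 (SE 0.27). Gmnn (adjusted p = 0.0529), Cdt1 (0.0742) and Mcm5 (0.202) did not pass in that edgeR fit. With all libraries kept, 8 of the 10 passed in limma voom with sample quality weights (5.19% of all genes), 3 in the fit of all 6 groups (0.666%) and 2 in DESeq2 (0.714%). With each mouse left out in turn, 0 of the 10 passed in all 12 fits, and the log2 fold change of Mcm4 stayed between 0.71 and 0.85.

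**Figure D3:**
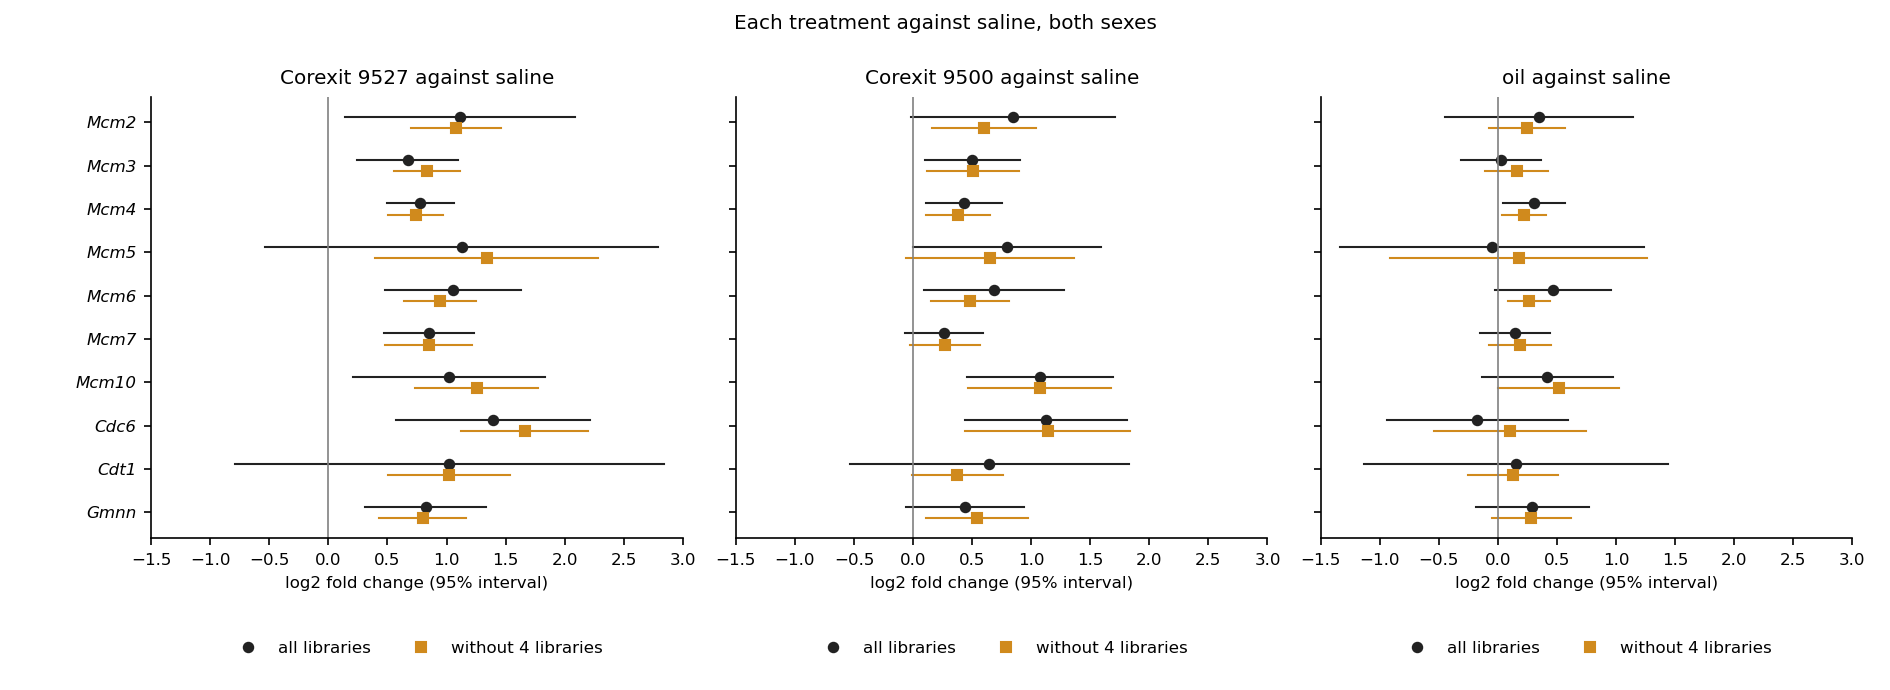
Log2 fold change of each licensing gene against saline over both sexes, for Corexit 9527, Corexit 9500 and oil. The x axes give the log2 fold change, lines are 95% intervals, black points are the fit with all libraries and orange squares the fit without those of the 4 high mitochondrial libraries that belong to the comparison. With Corexit 9527 all 10 points lie above 0, and without the libraries the intervals of Mcm5 and Cdt1 no longer include 0.

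The comparison of Corexit 9527 with saline was also made within each sex. Among males the median over the 10 genes was 0.95 log2 units, all 10 had an unadjusted p under 0.05 against 7.96% of all genes higher, and 0 were called by edgeR (lowest adjusted p 0.113, for Mcm3) against 0.114% of all genes. For 9 of the 10, all but Cdt1, every treated male mouse was above every saline mouse, against 10.5% of all genes. Without male Corexit 9527 mouse 12, 6 of the 10 rose with an adjusted p under 0.05, against 1.39% of all genes called in that fit. Without any 1 of the other 5 male mice the number was 0. In female mice the median was 0.90, and 2 genes (Mcm4 and Mcm7) had an unadjusted p under 0.05, against 0.247% of all genes higher. The number was 0 without Corexit 9527 mouse 10 or 12 or saline mouse 1 or 2, against 0.137% to 0.258% of all genes in either direction. Without saline mouse 3 and Corexit 9527 mouse 11, which leaves 2 female mice a group, the number was 8 of 10, against 4.98% of all genes in either direction, and 0 passed an adjusted p of 0.05 (lowest 0.334, for Cdc6). The difference between the sexes was called for 0 of the 10 genes with any of the 5 treatments in edgeR's test, as it was for 0% of all genes. At an unadjusted p under 0.05 the number was 1 of 10 with oil (Mcm3, 0.74 log2 units higher in male mice) against 1.65% of all genes. It was 0 of 10 with the others, against 0.726% of all genes for Corexit 9500, 0.352% for Corexit 9527, 0.509% for 9500+oil and 2.39% for 9527+oil. Without the 4 libraries it was 2 of 10 with oil (Mcm2 and Mcm3) against 5.98% of all genes and 1 of 10 with 9527+oil (Cdc6) against 6.73%. It was again 0 of 10 with the others, against 1.96% for Corexit 9500, 2.81% for Corexit 9527 and 2.63% for 9500+oil. With 1 mouse left out, the number with oil was 0 without male oil mouse 4 or 6 or male saline mouse 3, against 0.82% to 1.05% of all genes. It was 2 without male oil mouse 5 (1.75%) or female saline mouse 3 (5.6%) and 3 without female oil mouse 5 (2.9%). For Corexit 9527 the 95% intervals of the difference were wide, from -0.75 to 0.42 log2 units for Mcm4 and from -0.90 to 0.68 for Mcm7. The differences of the 10 genes ran from -0.28 to 1.30 log2 units with a median of 0.12. With 1 mouse left out, that median ran from -0.23 to 0.63.

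With Corexit 9500, the 10 genes were higher by a median of 0.66 log2 units against 0.03 over all genes, of which 53.6% were higher, and 0 were called by edgeR (adjusted p of 0.972 at the lowest), as were 0% of all genes. Cdc6 (log2 fold change 1.12, SE 0.35) and Mcm10 (1.07, SE 0.31) had the lowest p. With Mcm3, Mcm4 and Mcm6 they made 5 of 10 genes at an unadjusted p under 0.05, against 1.3% of all genes higher. The female mice were split, and Cdc6 stood at 9.60, 2.95 and 13.8 CPM against 3.04 to 3.73 CPM with saline. Mcm3 had 54.5, 22.2 and 49.5 CPM in the same mice, so that mouse 8 lay below every female saline mouse in both genes while the other 2 were above every saline mouse. In male mice Cdc6 had 6.63, 5.23 and 3.40 CPM and Mcm10 had 5.20, 5.34 and 3.65 CPM, all above the male saline mice, and mouse 9 was the lowest. No gene had groups free of overlap in both sexes, against 0.648% of all genes. Without female saline mouse 3 the unadjusted number was 7 of 10, against 5.62% of all genes in either direction, and 0 passed an adjusted p, as did 0% of all genes. It was 3 without female mouse 7 or male mouse 7 or 8 of Corexit 9500, against 1.28% to 1.89% of all genes, and 2 without female mouse 9, against 1.13%.

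Within male mice, 7 of the 10 genes were higher with Corexit 9500 under an unadjusted p of 0.05, all but Mcm4, Mcm7 and Cdt1, against 4% of all genes, and edgeR called 0, against 0.00662% of all genes. For 5 of them (Mcm3, Mcm6, Mcm10, Cdc6 and Gmnn) every treated male mouse was above every saline mouse, against 6.35% of all genes. The unadjusted number was 1 without Corexit 9500 mouse 7, against 3.84% of all genes in either direction, and 4 without saline mouse 3, against 4.79%. In female mice it was 0, against 0.155% of all genes higher, and Mcm4 was the 1 gene above saline without overlap, against 3.54%. It was again 0 without female saline mouse 3, against 1.64% of all genes in either direction, and 1 without Corexit 9500 mouse 8, against 0.331%.

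The dispersants were given at the same dilution and times, and the mice of Corexit 9527 were compared directly with those of Corexit 9500. The median difference was 0.34 log2 units, and edgeR's test called 0 of the 10 genes and 0% of all genes. Mcm7 had the lowest p, with 0.59 log2 units more in Corexit 9527 mice (95% interval 0.22 to 0.96, edgeR's adjusted p = 0.80). It was also the 1 gene of 10 at an unadjusted p under 0.05, against 2.13% of all genes higher. For Mcm10 the difference was -0.05, with an interval of -0.88 to 0.78, so that a difference of either sign and of considerable size was not detectable. Without Corexit 9527 mouse 11, 4 of 10 genes (Mcm4, Mcm6, Mcm7 and Cdt1) were higher at an unadjusted p under 0.05, against 5.16% of all genes in either direction. The number was 2 without female Corexit 9500 mouse 7 (3.76%) or male Corexit 9527 mouse 12 (5.01%) and 3 without female Corexit 9500 mouse 9 (2.18%). The median difference was 0.09 log2 units without female Corexit 9527 mouse 10, 0.15 without male Corexit 9527 mouse 11 and 0.22 without male Corexit 9500 mouse 9.

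With oil alone, the median over the 10 genes was 0.22 log2 units, and 0 passed an adjusted p of 0.05, as did 0% of all genes. Mcm4 was the 1 gene at an unadjusted p under 0.05 (log2 fold change 0.30, SE 0.13), against 0.28% of all genes higher. The number was 0 without female oil mouse 6, female saline mouse 1 or 2, male oil mouse 4 or 6 or any 1 of the male saline mice, against 0.269% to 0.802% of all genes in either direction. Within male mice the log2 fold changes of the 10 genes ran from 0.27 to 0.89 (median 0.42), and within female mice from -0.98 to 0.56 (median 0.01). Over all genes the median was -0.01 in either sex. The male oil mice had 5 genes at an unadjusted p under 0.05 (Mcm2, Mcm3, Mcm4, Mcm6 and Mcm10), against 5.75% of all genes higher, and the female mice 0, against 0.0472%. Without saline mouse 3 and oil mouse 6 the number was 2 of 10 over both sexes (Mcm4 and Mcm6), against 2.52% of all genes in either direction, and again 0 in female mice, against 0.959%. In male mice the number was 2 without oil mouse 4 (6.18% of all genes in either direction) or saline mouse 2 (5.93%), 3 without oil mouse 6 (4.79%) and 8 without oil mouse 5 (14.2%). Mcm10 stood at 5.29, 3.63 and 5.5 CPM in male oil mice, above all male saline mice (2.21 to 3.28 CPM), and at 2.23, 2.78 and 2.82 CPM in female oil mice, within the female saline range (1.75 to 3.31 CPM). The lowest adjusted p in male mice was 0.365 for Mcm6, in edgeR's test.

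The mice given 9500+oil and 9527+oil were compared with saline mice in the same way. The median over the 10 genes was 0.15 log2 units with 9500+oil and 0.04 with 9527+oil, and 0 of 10 had an unadjusted p under 0.05 in either. Of all genes, 0.202% were higher and 0.215% lower at that threshold with 9500+oil, and 1.06% and 1.93% with 9527+oil. The 10 log2 fold changes ran from -0.19 to 0.36 with 9500+oil and from -0.08 to 0.37 with 9527+oil. For Mcm7 the 95% interval was -0.35 to 0.22 with 9527+oil, and for Cdt1 it was -0.84 to 1.44, so that a difference of up to that size was not detectable for Cdt1. Without the high mitochondrial libraries the number was again 0 of 10 in both comparisons, against 7.16% of all genes in either direction with 9500+oil and 10.6% with 9527+oil.

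Within a sex, the differences of these groups from saline in male mice were -0.04 to 0.80 log2 units with 9500+oil and 0.00 to 0.41 with 9527+oil, and in female mice -0.46 to 0.39 and -0.49 to 0.68. Mcm5 had the largest of them in male mice, with 5.65, 3.53 and 4.02 CPM with 9500+oil against 3.48, 2.73 and 1.35 CPM with saline (log2 fold change 0.80, SE 0.36, edgeR's adjusted p = 0.538). It was the 1 gene of 10 above saline without overlap there, against 7.84% of all genes. With 9527+oil these were Cdc6 and Gmnn in male mice (2 of 10, against 5.73%) and Mcm2 in female mice (1 of 10, against 10.9%). Below saline without overlap were Cdc6 in female 9500+oil mice (1 of 10, against 0.71%) and Mcm3 and Cdc6 in female 9527+oil mice (2 of 10, against 7.05%). At an unadjusted p under 0.05 the number was 0 of 10 in each, against 9.22% of all genes for male and 0.155% for female 9500+oil mice and 5.54% and 1.1% with 9527+oil. It was 1 in male 9500+oil mice without mouse 14, against 4.62%, and 2 without saline mouse 1, against 10.3%. Without the high mitochondrial libraries it was again 0 in female mice, against 1.24% with 9500+oil and 12.3% with 9527+oil.

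The same dispersant was then compared with and without oil. All 10 genes were lower with 9527+oil than with Corexit 9527 alone, by a median of 0.85 log2 units, while 50.9% of all 15396 genes were higher. Mcm7 fell from 49.0 ± 3.75 to 23.7 ± 4.4 CPM in female mice (SD, n = 3) and from 49.2 ± 17.9 to 28.5 ± 1.62 CPM in males. Its log2 fold change was -0.91 (SE 0.17, edgeR's adjusted p = 0.0428), and it was the 1 licensing gene called, against 0.559% of all genes. Mcm6 (log2 fold change -0.85, edgeR's adjusted p = 0.0686) and Mcm4 (-0.64, adjusted p = 0.0723) followed. The 9527+oil mice had 29.4, 27.9 and 34.0 CPM of Mcm6 in female and 32.3, 27.4 and 32 CPM in male mice, below every Corexit 9527 mouse of their sex.

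Cdc6 again had the largest log2 difference, -1.45 (SE 0.40, edgeR's adjusted p = 0.175). Its 9527+oil mice lay close together, at 2.64, 1.88 and 2.59 CPM in female and 3.55, 3.96 and 3.52 CPM in male mice. At an unadjusted p under 0.05, 8 of the 10 genes were lower, all but Mcm5 and Cdt1, against 8.73% of all genes. For 4 genes (Mcm4, Mcm6, Mcm7 and Gmnn) the groups did not overlap in either sex, against 3.39% of all genes with 9527+oil the lower. Without Corexit 9527 mouse 11, all 10 genes fell, with adjusted p from 0.00590 to 0.0417, against 6.63% of all genes called in that fit. Among them, Cdt1 fell by 0.99 log2 units (SE 0.21), Mcm2 by 0.96 (0.17) and Mcm5 by 1.52 (0.40). Leaving out 1 mouse at a time, the call of Mcm7 was lost in 10 of 12 fits, where its adjusted p reached 0.163, and its log2 fold change stayed between -1.02 and -0.79. This comparison shares its Corexit 9527 mice with the one against saline, so the 2 results are not independent.

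With 9500+oil against Corexit 9500, all 10 genes were lower by a median of 0.52 log2 units, while 53.1% of all genes were higher, and edgeR's test called 0 of them, as it called 0% of all genes. Cdc6 (-1.32, SE 0.35) and Mcm10 (-1.10, SE 0.28) had the lowest p, and with Mcm2, Mcm3 and Mcm6 they made 5 of 10 genes at an unadjusted p under 0.05, against 1.38% of all genes lower. Mcm10 stood at 1.97, 2.98 and 2.33 CPM in female and 2.39, 2.78 and 3.10 CPM in male 9500+oil mice, below every Corexit 9500 mouse of its sex. It was the 1 gene of 10 without overlap in both sexes, against 0.222% of all genes. Without 9500+oil mouse 14, 5 of 10 genes (Mcm3, Mcm6, Mcm7, Mcm10 and Cdc6) were lower at an unadjusted p under 0.05, against 3.3% of all genes in either direction. The number was 3 without female Corexit 9500 mouse 9 (1.31%) or female 9500+oil mouse 15 (1.9%).

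**Figure D4:**
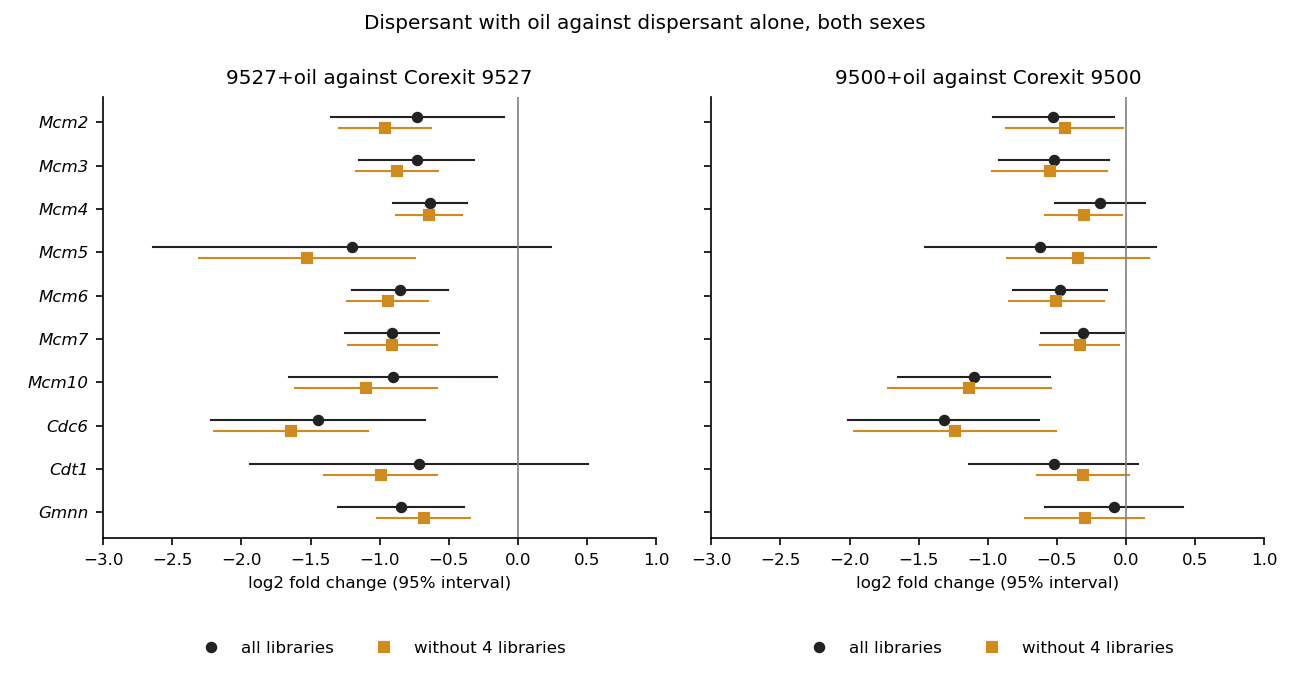
Log2 fold change of each licensing gene between a dispersant with oil and the same dispersant alone, over both sexes. The x axes give the log2 fold change, lines are 95% intervals, black points are the fits with all libraries and orange squares the fits without the high mitochondrial library of the comparison, Corexit 9527 mouse 11 on the left and 9500+oil mouse 14 on the right. All points lie below 0, and without mouse 11 the intervals of Mcm5 and Cdt1 on the left no longer include 0.

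Lists were written, with earlier results of these data known, of other genes of origin licensing and the G1/S transition and of general proliferation markers. These 7 lists held 62 genes, of which 61 were tested. With Corexit 9527, 53 were higher and 8 lower than with saline over both sexes, 17 were higher at an unadjusted p under 0.05, against 2.26% of all genes, and 0 passed an adjusted p in edgeR's test, against 0.0326%. Within male mice 30 were higher and 1 lower under that unadjusted p, against 7.96% and 5.78% of all genes, and within female mice 4 were higher and 0 lower, against 0.247% and 0.02%. Among the origin recognition complex, all 6 genes were higher by a median of 0.25 log2 units, with Orc1 (log2 fold change 1.86, SE 0.80) and Orc3 (0.37, SE 0.26) at the lowest p. All 12 genes that activate the helicase were higher by a median of 0.68, and Cdc7 (0.83, SE 0.20) and Dbf4 (0.82, SE 0.21), the kinase that phosphorylates the loaded MCM ring and its activator, led them. Cdc7 had 7.19 to 8.66 CPM in female Corexit 9527 mice against 3.38 to 4.34 CPM with saline, and 6.91 to 9.18 against 4.15 to 5.91 CPM in male mice. Of the other MCM genes, Mcm9 (0.97, SE 0.60) and Mcm8 (0.24, SE 0.44) had the lowest p, and neither had an unadjusted p under 0.05.

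Among the genes for the turnover of CDT1 and the relatives of geminin, Dtl, a substrate receptor of the ubiquitin ligase that degrades CDT1 in S phase, stood 2.35 log2 units higher (SE 0.64) and Skp2 0.92 (SE 0.64), and the median of the 7 was 0.10. Dtl had 0 to 2.76 CPM in female and 1.05 to 2.89 CPM in male saline mice. The 13 genes of G1/S transcription control had a median of 0.27, with E2f8 (1.43, SE 0.35) and E2f3 (2.65, SE 1.33) at the lowest p. E2f3 lay near 0 with saline, with means of 0.392 CPM in female and 0.175 CPM in male mice. The lowest female Corexit 9527 mouse was also at 0. Male means of E2f3 were 2.77 CPM with Corexit 9527, 2.94 with Corexit 9500 and 3.27 with 9527+oil. The 12 G1/S cyclins, kinases and inhibitors had a median of 0.18, with Ccna2, the cyclin of S phase, at 1.68 (SE 0.29) and Ccne2 at 0.97 (SE 0.39). The 8 general proliferation markers were all higher at an unadjusted p under 0.05, with a median of 1.37, and Top2a (1.59, SE 0.24, edgeR's adjusted p = 0.0676) and Cdk1 (1.56, SE 0.30) led them. With Corexit 9500 the 61 genes were divided into 37 higher and 24 lower, while 53.6% of all genes were higher. Of the 61, 9 had an unadjusted p under 0.05 and were higher, and 0 were lower, against 1.3% and 1.01% of all genes.

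With 9527+oil against Corexit 9527, 50 of the 61 genes were lower and 10 fell as called by edgeR, against 0.559% of all genes, 7 of them among the 8 proliferation markers. Dtl fell by 1.87 log2 units (SE 0.29) and Ccna2 by 1.69 (0.25), both with an adjusted p of 0.0259, as did Top2a by 1.55 (0.24) and Cdk1 by 1.78 (0.27). Orc1 (-2.15, edgeR's adjusted p = 0.0815), Dbf4 (-0.90, 0.0633) and Cdc7 (-0.59, 0.147) were among those that did not pass. Mcm8 (-0.65), Orc3 (-0.62), Skp2 (-0.79), E2f8 (-1.10) and Ccne2 (-1.24) were lower without passing, and Mcm9 (0.07) and E2f3 (-0.08) were near 0.

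Macrophage markers had their highest group mean with Corexit 9527 in both sexes. Their summed level (Marco, Mrc1, Chil3, Cd68 and Itgax, 5 of the 6 listed) was 1221 to 2218 CPM in female Corexit 9527 mice against 701 to 734 CPM with saline, and 879 to 1677 against 637 to 793 CPM in male mice. Of the 5 markers, all were higher with Corexit 9527 over both sexes and 3 had an unadjusted p under 0.05, against 2.26% of all genes higher. In male mice 1 passed an adjusted p in edgeR's test, against 0.114% of all genes. The male oil mice had 963 to 1079 CPM and the female oil mice 599 to 663 CPM. With 9527+oil the sums were 463 to 523 CPM in female and 567 to 847 CPM in male mice. Within the Corexit 9500 groups, the mouse with the lowest mean of the licensing genes had the lowest marker sum, with 736 CPM in female mouse 8 against 1299 and 1231 CPM, and 697 CPM in male mouse 9 against 836 and 973 CPM. In the male Corexit 9527 group it did not, and mouse 12, with the lowest mean of the licensing genes, had 1244 CPM against 879 CPM in mouse 10. Female Corexit 9527 mouse 11, with the second lowest mean of the licensing genes of all mice, had 1430 CPM. Endothelial markers were lower in male Corexit 9527 mice, with summed levels of 3063 to 3182 against 3704 to 4217 CPM, and so were erythroid markers, with 2720 to 6787 against 7529 to 12555 CPM, club cell markers, with 14783 to 17996 against 19647 to 24795 CPM, and skeletal muscle markers, with 3.55 to 4.56 against 6.83 to 7.56 CPM. In female mice these 4 sums overlapped with saline, at 2021 to 2538 against 1881 to 3445 CPM for endothelial, 361 to 4980 against 525 to 6235 CPM for erythroid and 9309 to 15376 against 7735 to 19629 CPM for club cell markers. Skeletal muscle markers ran from 5.07 to 10.2 CPM in female Corexit 9527 mice against 3.08 to 5.70 CPM with saline, so that their median was the higher in female mice. Fibroblast markers were higher without overlap, with 2959 to 3441 against 2296 to 2590 CPM in male and 2232 to 3016 against 1635 to 2120 CPM in female mice. At an unadjusted p under 0.05 in the fit over both sexes, 3 of 5 fibroblast genes were higher with Corexit 9527, against 2.26% of all genes, and 1 of 4 neutrophil and 1 of 4 heart muscle genes lower, against 0.6%, while the number was 0 in the marker lists other than these and macrophage. Thymocyte markers summed to 6.78 to 15.9 CPM over all mice. The part of these cell types in the differences of the licensing genes was not tested.

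**Figure D5:**
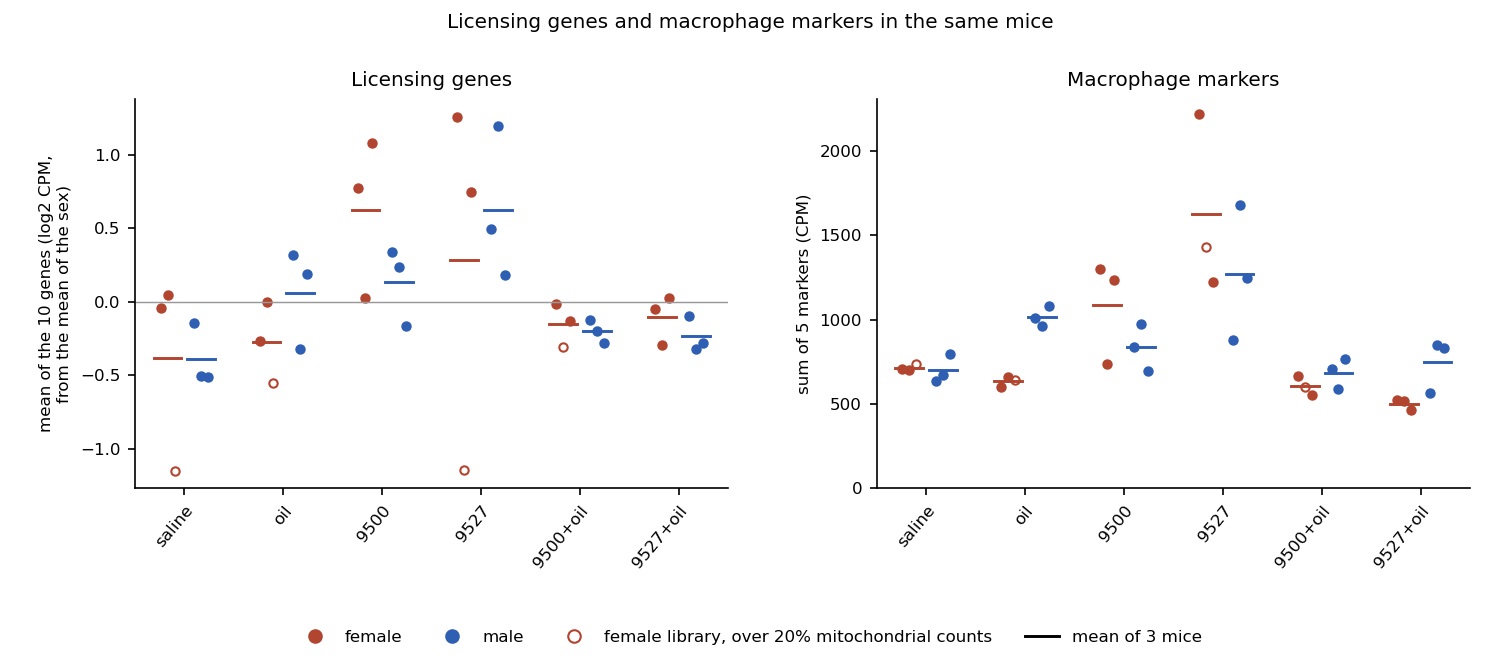
Licensing genes and macrophage markers in the same mice. The left y axis gives the mean of the 10 genes as log2 CPM from the mean of the sex and the right y axis the sum of 5 markers in CPM, points are mice, bars are means of 3 mice, and open points are the 4 high mitochondrial libraries. The highest licensing mean of each sex belongs to a Corexit 9527 mouse (1.26 in female mouse 10 and 1.20 in male mouse 11), and the same mice have the highest marker sums, 2218 and 1677 CPM.

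Pairs of the 10 genes were compared over the mice. Between them, Pearson's r of log2 CPM, each taken from the mean of its sex, had a median of 0.57 over 36 mice and ran from -0.32 to 0.91. Over the 32 mice outside the 4 libraries the median was 0.77 and the lowest 0.27. With the mean of the 10 genes, Gmnn had an r of 0.20 over 36 and 0.70 over 32 mice, and Mcm7 one of 0.56 and 0.85. The 5 other genes most like that mean over 36 mice were Pole (r of 0.96), Aurka (0.93), Cenpm (0.91), Cdca3 (0.90) and Rfc5 (0.90). Pole encodes the catalytic subunit of DNA polymerase epsilon, Rfc5 a subunit of the clamp loader and Aurka a mitotic kinase. These values are descriptions, since the 2 values of a mouse come from the same library and the mice of a group share its treatment.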

How the data were processed

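RNA was sequenced from the left lungs of 18 female and 18 male mice. The authors quantified reads with Salmon against the GRCm38 transcriptome and combined them with tximport. The deposited values are estimated counts per gene symbol, whole numbers with no scaling, in 1 table per sex whose rows sum to at least 10. Versions are not given in the sources used here. In either table, 24 names had been turned into dates and 4 rows shared a name, and the latter were left out.

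Counts were scaled by TMM and tested with edgeR 4.0.16 (quasi-likelihood, R 4.3.3) with sex as a term, after filterByExpr, on 3 mice per sex and group. P-values were adjusted by Benjamini-Hochberg over all genes tested, and called means an adjusted p under 0.05. Levels are CPM on TMM library sizes. Intervals called 95% are 1.96 standard errors on each side, from the normal distribution. They are narrower than edgeR's test allows with so few mice, so an interval can leave out 0 at a p above 0.05. Positions and transcript lengths are those of GENCODE on GRCm38. Scripts were tested on simulated data. Depth was 17501180 to 30011557 counts, and a count of 0 allows up to 3 counts, which covers counting error only.

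The members and lists were chosen with earlier results of these data known. The 10 members are always named, with the 2 genes of lowest p of each pathway list and the 5 genes most like the mean of the members. Alternatives were DESeq2 1.42.0, limma 3.58.1 (voom with sample quality weights), DESeq2 size factors in edgeR, other filters, the 6 groups fitted together, a fit lacking the sex term, GC offsets, other scalings of CPM, the fit without the 4 libraries of high mitochondrial share, and the removal of single mice (252 fits).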

Additional observations from a re-analysis of the deposited data

How the results depend on the processing

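Of 4008 alternative log2 fold changes of single licensing genes, 75 passed the threshold anew and 11 no longer passed it. Of those that passed in either fit, 0 reversed. Another 3887 kept their side of the threshold and, where neither fit passed, stayed within 1 SE of the main value, while 35 moved further. Direction was not compared where neither fit passed, and some genes changed sign there. With oil over both sexes, 8 of 10 were higher in the main fit, 7 with DESeq2 size factors and 10 without the 4 libraries. Of 240 alternative levels 35 moved by more than 1 SD. Counts of called genes changed as follows, and the cause was not tested. For Corexit 9527 against saline over both sexes (0 of 10), the count was 3 with all 6 groups in one fit, 2 with DESeq2, 8 with limma voom and sample quality weights and 7 without the 4 libraries of high mitochondrial share, against 0.666%, 0.714%, 5.19% and 2.13% of all genes. In male mice alone (0) it was 6 with all 6 groups (1.83% of all genes), 7 with DESeq2 (3.15%) and 0 to 6 with each mouse left out, with 6 without Corexit 9527 mouse 12 (1.39%). For any difference among the 6 groups it was 1 with DESeq2 (0.279%) and 4 with limma voom (7.23%) in female mice (0), and 8 with DESeq2 (3.33%) and 0 to 4 with each mouse left out in male mice (0), with 4 without Corexit 9527 mouse 12 (0.983%) and 1 without Corexit 9500 mouse 9 (0.636%). For 9527+oil against Corexit 9527 (1) it was 3 with all 6 groups (0.999%), 6 with DESeq2 (3.51%), 10 with limma voom (10.2%), 0 with no filter on low counts (0.429%), 10 without the 4 libraries (6.63%) and 0 to 10 with each mouse left out, with 10 without female Corexit 9527 mouse 11 and 3 without male Corexit 9527 mouse 12 (0.823%). No paired analysis was possible because the groups compared within a sex share no mouse numbers. A count of 0, found for Cdt1 and Mcm5 in female libraries, allows up to 3 counts.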

Other observations

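Per kilobase, Mcm5 stood below the median of the other 5 subunits of the helicase in every library. Its level, divided by that median, ran from 0 to 0.396 with a median of 0.172 in 18 female libraries, and from 0.0443 to 0.251 with a median of 0.132 in 18 male libraries.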
